A study of Mus musculus with 9 samples.

Results

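A set of 10 macrophage transcripts was followed through erythroblasts sorted from mouse fetal liver: Tyrobp, C1qa, C1qb, C1qc, Fcer1g, Ctss, Cd68, Csf1r, Adgre1 and Vcam1. They were chosen by name, with earlier results of these data known. Shares over all probe sets are therefore given for scale and do not test the set. Every probe set whose only annotated gene symbol was one of these 10 was taken. Each gene had exactly 1 probe set, so 10 of the 28939 probe sets outside the array's control block are described. RNA from 3 Th3/Th3, 3 Th3/+ and 3 wild type samples was amplified from 35 ng and hybridised to oligonucleotide arrays that probe whole transcripts, 1 array for each sample. Th3 is a deletion of the adult beta-globin genes that serves as a mouse model of beta-thalassemia, so Th3/Th3 cells have no intact copy, Th3/+ cells have 1 and wild type cells have both. All samples came from E14.5 embryonic livers of Th3/+ intercrosses on a 129SV line backcrossed for 9 generations to C57BL/6. All were sorted for the surface proteins CD71 and Ter119 and for high forward scatter, a measure of cell size. The labels call the replicates biological but do not say if embryos were pooled, so p-values measure the spread between these samples.

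Erythroblasts of the fetal liver mature in erythroblastic islands, in which a central macrophage holds a ring of developing red cells. The macrophage anchors them through surface proteins such as Vcam1, which binds the alpha-4 beta-1 integrin on the erythroblast, and it engulfs and digests the nuclei that the maturing cells expel. Attached macrophages, or fragments of their membrane and cytoplasm, can stay on erythroblasts after the liver is dissociated. The arrays do not tell which cells a transcript came from, and in a bulk sample, fewer macrophages and less of the RNA per macrophage cannot be told apart.

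The regulatory sequences of 3 genes are shown because C1qb and Fcer1g carried the firmest difference and C1qc is the neighbour of C1qb. PU.1, encoded by Spi1, is the transcription factor that sets macrophage identity, and it binds purine-rich sites with the core GAGGAA. RefSeq windows on GRCm38.p6 were matched for 5 of the 10 genes, each cut to the 250 bases before a transcript start. They read 5′ to 3′ along the gene's strand, with the core or its reverse complement TTCCTC in capitals.
C1qb (chr4:136886201-136886450, minus strand): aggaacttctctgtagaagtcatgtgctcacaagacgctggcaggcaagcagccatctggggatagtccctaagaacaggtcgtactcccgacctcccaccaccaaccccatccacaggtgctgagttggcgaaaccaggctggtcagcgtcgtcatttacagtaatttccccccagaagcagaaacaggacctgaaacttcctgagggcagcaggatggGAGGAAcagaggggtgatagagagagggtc
C1qc (chr4:136892915-136893164, minus strand): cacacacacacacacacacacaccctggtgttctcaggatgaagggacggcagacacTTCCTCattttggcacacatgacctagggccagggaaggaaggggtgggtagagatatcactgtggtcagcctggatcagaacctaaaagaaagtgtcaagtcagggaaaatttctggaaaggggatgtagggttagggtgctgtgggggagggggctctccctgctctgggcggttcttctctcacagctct
Fcer1g (chr1:171234350-171234599, minus strand): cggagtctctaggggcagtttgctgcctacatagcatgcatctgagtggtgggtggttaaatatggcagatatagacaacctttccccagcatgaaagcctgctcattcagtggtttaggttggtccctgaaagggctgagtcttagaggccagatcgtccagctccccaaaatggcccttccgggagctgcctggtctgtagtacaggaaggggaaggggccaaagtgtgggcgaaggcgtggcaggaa

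The window of C1qb held the core at position -30 counted from the transcript start, that of C1qc held it at -193, and that of Fcer1g held none. Those of Ctss and Cd68, the remaining 2 genes with a window, held it at -164 and -225. The core was thus in 4 of 5 windows, and in 23.3% of the 32851 windows of the same length over all genes. A match describes letters and is not a binding site.

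In Th3/Th3 erythroblasts Tyrobp, C1qb and Fcer1g were lower than in wild type cells, by 2.36-fold, 1.87-fold and 1.38-fold (limma, adjusted p under 0.05, a rule that called 12.3% of all probe sets tested in either direction and 4.98% lower). Tyrobp and Fcer1g encode signalling adaptors of myeloid receptors and C1qb a chain of complement C1q. The Th3/Th3 mean was below the wild type mean for all 10 genes, as for 51.3% of all 28939 probe sets. The median difference was -0.48 on the log2 scale against 0.00 over all probe sets. The 10 include Csf1r, which lay too low to be tested. They also include Adgre1 and Vcam1, low on every Th3/Th3 array and tested only because of their values in the other genotypes. The median lay between the differences of Vcam1 and Fcer1g, so it rests in part on a gene with this limit. In Th3/+ cells 0 of 9 genes passed the test, where 0.0282% of all probe sets did. Of the 10 means 6 lay above and 4 below wild type, where 50.6% of all probe sets lay below. Csf1r, Adgre1 and Vcam1 are among the 6. The median difference was 0.09. The plot of values by array shows every gene.

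**Figure D1:**
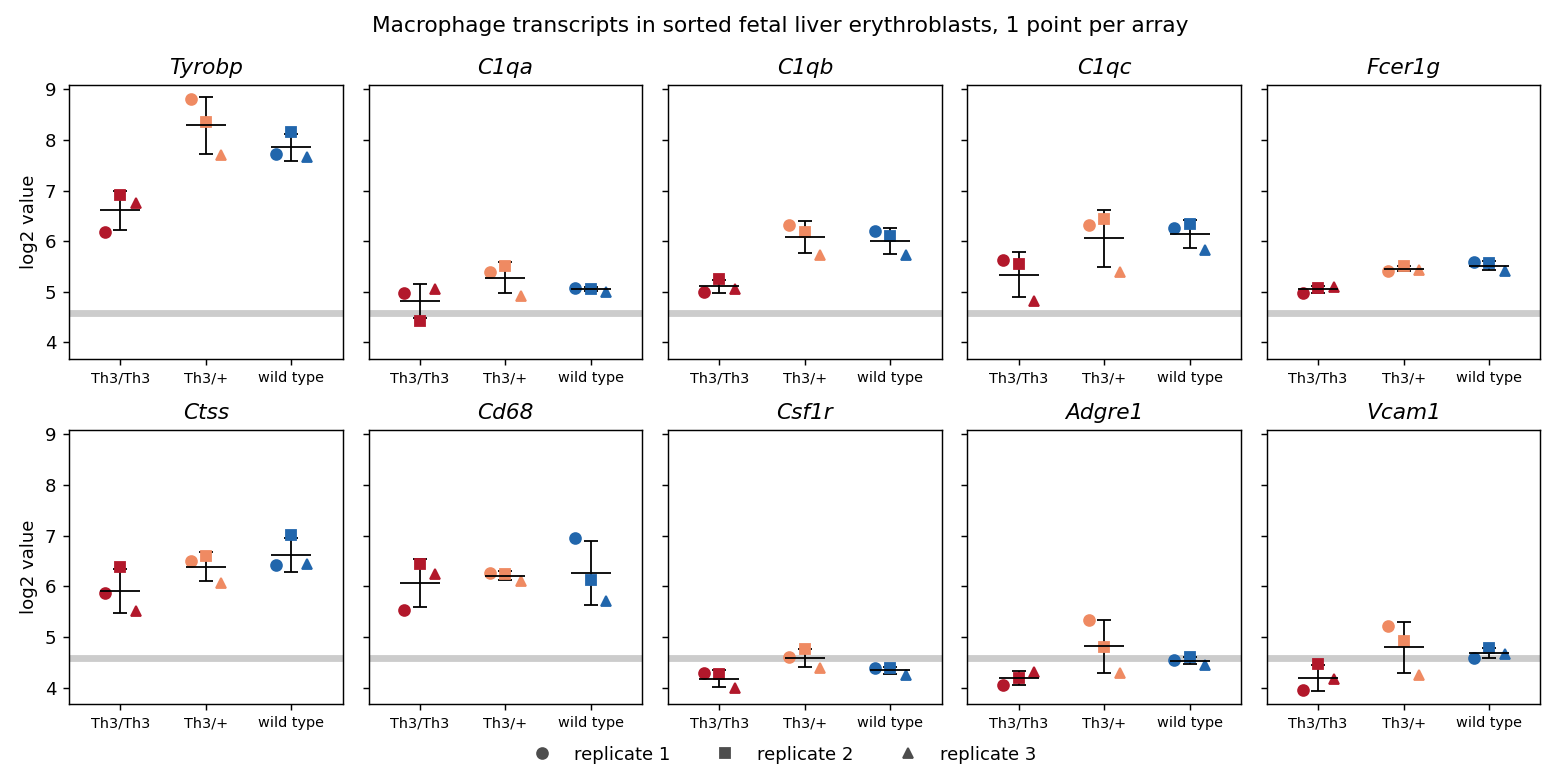
Deposited log2 value (vertical axis) of each macrophage transcript in Th3/Th3, Th3/+ and wild type samples, 1 point per array with the replicate number as its shape. Horizontal bars are means with SD (n = 3 arrays per genotype) and the grey band spans the 40th percentile of the 9 arrays, 4.52 to 4.62. Th3/Th3 points lie below all wild type points for 7 of the 10 genes, and those of Csf1r, Adgre1 and Vcam1 lie near or under the band.

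The samples were first checked against their labels. The 2 probe sets for the adult beta-globin genes gave log2 values of 8.43 to 10.09 in Th3/Th3, 13.68 to 13.81 in Th3/+ and 13.76 to 13.86 in wild type. The ranges of Th3/+ and wild type overlap, so this check covers the Th3/Th3 labels. Array medians lay between 4.97 and 5.05, and a probe set was tested if it exceeded the 40th percentile of its array on at least 3 of 9 arrays, which kept 17742. The erythroblast marker list averaged 10.53 to 10.84 in Th3/Th3, 11.31 to 11.41 in Th3/+ and 11.38 to 11.52 in wild type (log2, mean over 12 genes on each array). The second principal component held 16.7% of the variance and fell from replicate 1 to replicate 3 in every genotype. It was highest in Th3/Th3 replicate 1 (25.5) and Th3/+ replicate 1 (20.5), with wild type replicate 1 next (7.71).

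Tyrobp encodes DAP12, a transmembrane adaptor whose ITAM motif carries signals of receptors such as TREM2. Its log2 values were 6.18, 6.91 and 6.75 in Th3/Th3, 8.80, 8.36 and 7.70 in Th3/+, and 7.73, 8.16 and 7.67 in wild type (replicates 1 to 3). All Th3/Th3 arrays lay below all Th3/+ and all wild type arrays, and Th3/+ overlapped wild type. The mean fell by 1.24 to 6.61 ± 0.38 in Th3/Th3, against 7.85 ± 0.27 in wild type (SD, n = 3 each; limma, SE 0.29, adjusted p = 0.0232). This call was lost when any of 5 arrays was left out, namely Th3/Th3 replicates 1 and 3 (adjusted p = 0.0630 and 0.0514) and wild type replicates 1, 2 and 3 (adjusted p = 0.0577, 0.0877 and 0.0524). Against Th3/+ cells, at 8.29 ± 0.55, the difference was -1.67 (adjusted p = 0.00943). Tyrobp lies on chromosome 7, as do the beta-globin genes removed in Th3, and whether linked variants affect its probe set was not tested.

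Fcer1g encodes the gamma chain shared by Fc receptors, another ITAM adaptor, which platelets and mast cells also use. Its log2 values were 4.97, 5.08 and 5.09 in Th3/Th3, 5.41, 5.51 and 5.44 in Th3/+, and 5.58, 5.57 and 5.41 in wild type. The Th3/Th3 arrays formed a narrow group under all others. The mean was 5.05 ± 0.07 in Th3/Th3 and 5.52 ± 0.09 in wild type, a difference of -0.47 (SE 0.08, limma adjusted p = 0.00481). Against Th3/+, with a mean of 5.45 ± 0.05, it was -0.40 (adjusted p = 0.0149). Fcer1g had the smallest adjusted p of the 9 genes tested in Th3/Th3 against wild type, with a small fold and a small spread.

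C1qa, C1qb and C1qc encode the 3 chains of complement C1q, which opens the classical complement pathway and is made mainly by macrophages. The genes lie side by side on chromosome 4. C1qb gave 5.00, 5.26 and 5.05 in Th3/Th3, 6.32, 6.18 and 5.72 in Th3/+, and 6.20, 6.11 and 5.72 in wild type. Th3/Th3 lay wholly under the other genotypes, which overlapped each other. C1qb fell by 0.90 to 5.10 ± 0.14 in Th3/Th3, against 6.01 ± 0.25 in wild type (SE 0.17, limma adjusted p = 0.00935), and its difference to Th3/+ was -0.97 (adjusted p = 0.0107).

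C1qc values were 5.62, 5.56 and 4.82 in Th3/Th3, 6.32, 6.44 and 5.40 in Th3/+, and 6.26, 6.33 and 5.82 in wild type. The Th3/Th3 arrays lay under the wild type arrays, and replicate 3 was the lowest array of every genotype. The difference of -0.80 between Th3/Th3 and wild type had a 95% interval of -1.48 to -0.13 and did not pass after adjustment (adjusted p = 0.125). C1qa values were 4.97, 4.43 and 5.06 in Th3/Th3, 5.39, 5.51 and 4.92 in Th3/+, and 5.08, 5.06 and 5.00 in wild type. Here Th3/Th3 overlapped both other genotypes, with a difference to wild type of -0.23 and an interval of -0.64 to 0.18 (adjusted p = 0.496). Without Th3/Th3 replicate 2 it was -0.033. In the fit without a replicate block, C1qb was thus the C1q chain that passed, and whether the chains differ from each other was not tested.

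Ctss encodes cathepsin S, a lysosomal protease of antigen-presenting cells. Its values were 5.86, 6.38 and 5.51 in Th3/Th3, 6.50, 6.61 and 6.06 in Th3/+, and 6.42, 7.01 and 6.44 in wild type. The highest Th3/Th3 array came close to the lowest wild type array without overlap. The difference to wild type was -0.71 with an interval of -1.27 to -0.15 (adjusted p = 0.104), and that to Th3/+ was -0.47 (adjusted p = 0.323). Without Th3/Th3 replicate 2 the comparison with wild type passed (adjusted p = 0.0438).

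Cd68 encodes a lysosomal membrane glycoprotein used as a macrophage marker in many tissues. Its values were 5.53, 6.44 and 6.24 in Th3/Th3, 6.27, 6.25 and 6.10 in Th3/+, and 6.96, 6.12 and 5.72 in wild type. The genotypes overlapped throughout, and wild type replicate 1 was the highest of all 9 arrays. The difference of Th3/Th3 to wild type was -0.19 (interval -0.89 to 0.50, adjusted p = 0.761). It turned to 0.15 without wild type replicate 1 and to 0.07 without Th3/Th3 replicate 1, so Cd68 had no stable direction.

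The remaining genes encode surface proteins found on macrophages. Adgre1 encodes an adhesion receptor long used to identify mouse macrophages. Its values were 4.05, 4.20 and 4.31 in Th3/Th3, 5.34, 4.80 and 4.29 in Th3/+, and 4.54, 4.60 and 4.45 in wild type. Th3/Th3 lay under wild type, Th3/+ reached both the highest values and the Th3/Th3 range, and 3 of the 9 arrays exceeded their 40th percentile. The differences were -0.34 to wild type and -0.63 to Th3/+ (adjusted p = 0.363 and 0.126).

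Vcam1, the island adhesion molecule, gave 3.94, 4.47 and 4.16 in Th3/Th3, 5.21, 4.92 and 4.24 in Th3/+, and 4.59, 4.78 and 4.66 in wild type. Only arrays of Th3/+ and wild type exceeded the 40th percentile, 5 in all. Th3/Th3 lay below wild type by 0.49 on average (a difference of -0.49, interval -0.99 to 0.01, adjusted p = 0.207) and below Th3/+ with a difference of -0.60 (adjusted p = 0.155). Because Adgre1 and Vcam1 entered the test through arrays of the other genotypes, their differences are given as values beside the low level. No Th3/Th3 array exceeded the 40th percentile for either gene. Without Th3/+ replicate 1 the differences to Th3/+ were -0.36 for Adgre1 and -0.39 for Vcam1.

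Csf1r encodes the receptor for the macrophage growth factors CSF1 and IL-34. It gave 4.28, 4.26 and 3.99 in Th3/Th3, 4.59, 4.77 and 4.39 in Th3/+, and 4.38, 4.38 and 4.25 in wild type. It exceeded the 40th percentile on 1 of 9 arrays, Th3/+ replicate 2, and was not among the probe sets tested. Th3/Th3 replicates 1 and 2 (4.28 and 4.26) lay above the lowest wild type value (4.25), so these genotypes overlapped. All Th3/+ values lay above wild type. The differences were -0.16 to wild type and -0.41 to Th3/+ for Th3/Th3, and 0.25 to wild type for Th3/+.

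**Figure D2:**
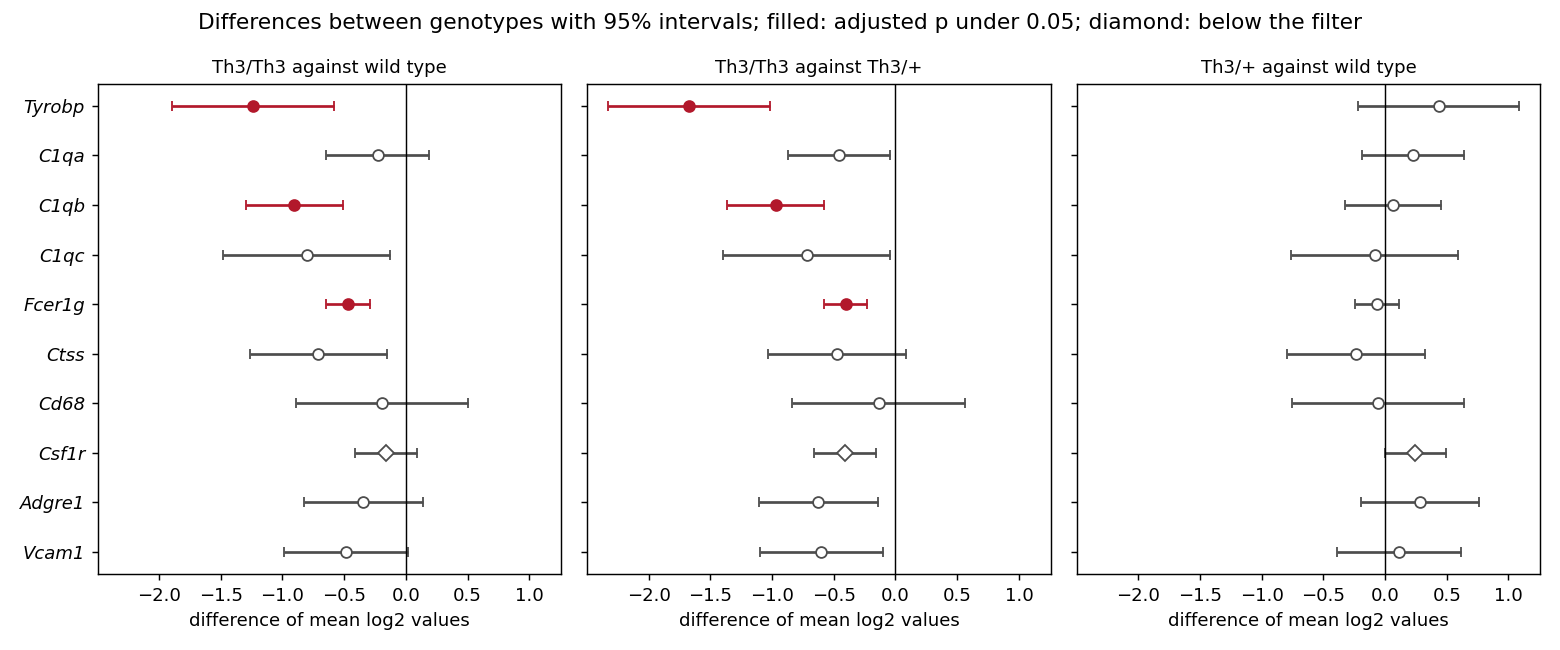
Difference of mean log2 values (horizontal axis) for each macrophage transcript in 3 panels, 1 per pair of genotypes, with 95% intervals from the moderated variance of limma (3 arrays per genotype). Filled red points have an adjusted p under 0.05, and the diamond marks Csf1r, which lay below the filter. Tyrobp, C1qb and Fcer1g are filled in both Th3/Th3 comparisons and no gene is filled in Th3/+ against wild type.

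In Th3/Th3 against wild type, 3 of the 9 genes tested were called lower and 0 higher, against 4.98% of all 17742 probe sets tested that were called lower. An unadjusted p under 0.05 was reached by 5 of the 9 and by 25.7% of all probe sets. The 3 Th3/Th3 arrays lay below the 3 wild type arrays without overlap for 7 of the 10 genes, a pattern found in 9.14% of all 28939 probe sets. Among the 7 are Adgre1 and Vcam1, which exceeded the 40th percentile on no Th3/Th3 array. Set against Th3/+, Th3/Th3 cells had the same 3 genes called lower, where 7.27% of all probe sets were called and 3.26% were called lower. All 10 means were lower there, against 49.9% of all probe sets, and 4 of 10 were without overlap, against 7.3%. The 4 include Csf1r, which exceeded the 40th percentile on 1 of 9 arrays and was not tested. The 10 means also include Adgre1 and Vcam1, with their low level in Th3/Th3. Without Th3/+ replicate 2, or without Th3/+ replicate 1 and Th3/Th3 replicate 1 together, C1qb (adjusted p = 0.0510 and 0.0748) and Fcer1g (adjusted p = 0.0707 and 0.0546) lost this call. Both comparisons share the Th3/Th3 arrays. The 10 genes were chosen with earlier results of these data known, so the shares beside them do not test the set. The moderated F-test over the 3 genotypes called Tyrobp, C1qb and Fcer1g (adjusted p = 0.0138, 0.0112 and 0.00908), and 9.1% of all probe sets.

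The Th3/+ cells bear on the loss of 1 allele. Of the 9 genes tested, 0 were called in limma and 0 had an unadjusted p under 0.05, where 3.64% of all probe sets had one. The arrays of Th3/+ lay above those of wild type without overlap for 1 of 10 genes, Csf1r, against 3.36% of all probe sets. Tyrobp differed by 0.43 with an interval of -0.22 to 1.09, and by 0.18 without Th3/+ replicate 1 and 0.73 without Th3/+ replicate 3. C1qb (0.07, interval -0.32 to 0.46) and Fcer1g (-0.07, interval -0.24 to 0.11) had narrower intervals. For both, the interval leaves out a difference as large as that between Th3/Th3 and wild type.

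Single arrays differed more within Th3/+ than the genotype mean shows. In Th3/+ replicate 3, all 10 genes lay under the mean of their genotype and 9 of 10 were the lowest of the 3 arrays. In replicates 1 and 2 of Th3/+, 9 of 10 lay above it. The average deviation over the 10 genes was 0.22, 0.14 and -0.37 in Th3/+ replicates 1, 2 and 3. Wild type replicate 3 also had all 10 genes under its genotype mean, with an average deviation of -0.19, while replicates 1 and 2 were at 0.07 and 0.11. In Th3/Th3 the averages were -0.10, 0.15 and -0.05, and no array had all genes on one side.

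**Figure D3:**
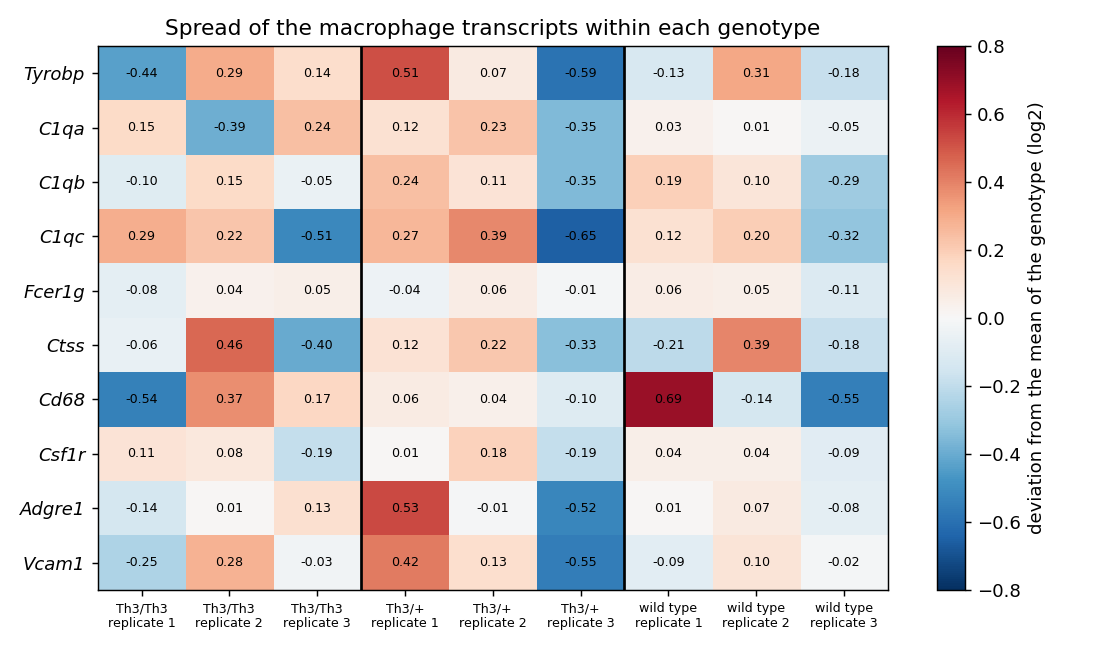
Deviation of each macrophage transcript (rows) from the mean of its genotype on each of the 9 arrays (columns), in log2 units, with red above and blue below the mean. The column of Th3/+ replicate 3 is blue for all 10 genes, from -0.01 for Fcer1g to -0.65 for C1qc, and that of wild type replicate 3 is blue for all 10 as well.

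These deviations give a measure of likeness that leaves out the genotype. Over the 9 arrays, the deviations of C1qb correlated with the mean of the other 9 genes at r = 0.958, those of Vcam1 at 0.859 and those of Tyrobp at 0.81. C1qa (0.204), Cd68 (0.308) and Fcer1g (0.435) followed the others least. These are descriptions over 9 arrays of 3 genotypes whose means were removed, so the points are not independent. Among 12889 other genes, those most like the average of the 10 were Upk3a (0.988), Aym1 (0.961), Tctn2 (0.96), Rbbp9 (0.954), Lgals9 (0.95), Dnmbp (0.95), Klhl23 (0.95), Hspb11 (0.946), B430209F14Rik (0.936) and Armcx6 (0.932). None of these 10 was called in Th3/Th3 against wild type (limma, smallest adjusted p = 0.381). They head a ranking of 12889 genes over only 9 arrays, and whether their likeness exceeds chance was not tested. Of 22 genes ranked from both further macrophage marker lists, the integrin gene Itgb2 was the most alike (r = 0.876, rank 42). The actin-binding Coro1a was the least (r = -0.778, rank 12661). An r of 0.9 was reached by 0 of the 22 and by 0.155% of all 12889 genes, a share too small to read in 22 genes.

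Further macrophage markers were read from lists that hold none of the 10. Of 22 core macrophage genes on the array 12 were tested, and 0 were called in Th3/Th3 against wild type. Of all probe sets tested, 12.3% were called. Means were lower for 18 of the 22, against 51.3% of all probe sets, with a median difference of -0.09. The Th3/Th3 arrays lay wholly under the wild type arrays for 3 of the 22, against 9.14% of all probe sets. The pore-forming protein gene Mpeg1 had 4.90 ± 0.31 in Th3/Th3 and 5.39 ± 0.08 in wild type (adjusted p = 0.0602), and the lysosomal membrane protein gene Laptm5 had 4.67 ± 0.51 and 5.24 ± 0.22 (adjusted p = 0.137). Against Th3/+, the lysozyme gene Lyz2 was called lower by 0.97 in Th3/Th3 (4.45 ± 0.34 against 5.42 ± 0.50, adjusted p = 0.0493), a gene named after its value was seen. The list averaged 4.51 to 4.62 per array in Th3/Th3, 4.58 to 4.81 in Th3/+ and 4.65 to 4.78 in wild type.

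A further list held markers of fetal liver island macrophages. Of 17 on the array, 10 were tested, 2 rose and 0 fell in Th3/Th3 against wild type, with a median of -0.11. Of all probe sets tested, 12.3% were called in either direction. The 2 that rose are used by erythroblasts too: Hmox1, heme oxygenase, rose by 1.75 (8.80 ± 0.19 in Th3/Th3, 7.05 ± 0.30 in wild type, adjusted p = 0.00116), and Slc40a1, the iron exporter ferroportin, rose by 0.70 (9.14 ± 0.21 and 8.44 ± 0.15, adjusted p = 0.0133). The means of 12 of the 17 were below wild type, where 51.3% of all probe sets lay below. The Th3/Th3 arrays lay wholly under the wild type arrays for 4 of the 17, and for 9.14% of all probe sets. They lay wholly over them for Hmox1 and Slc40a1. The 4 are Timd4 and Maf, which were not called, and Spic and Mertk, which lay too low to be tested. Timd4, named after its value was seen, differed by -0.47 (5.05 ± 0.15 in Th3/Th3, 5.52 ± 0.21 in wild type, limma adjusted p = 0.0801). Axl, Cd163, Folr2, Mertk, Mrc1 and Vsig4 lay below the 40th percentile on all 9 arrays.

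Genes that work with the 10 were read by role in Th3/Th3 against wild type. Of all probe sets tested, 12.3% were called there, so 0 calls among 5 or 7 genes say little. Of 12 partners of the ITAM adaptors 7 were tested and 0 called, among them Fcgr3, an Fc receptor that uses Fcer1g (4.78 ± 0.11 in Th3/Th3, 5.14 ± 0.23 in wild type, adjusted p = 0.0872), and the kinase gene Btk (5.58 ± 0.41 and 5.08 ± 0.27, adjusted p = 0.154). Of 11 complement components and receptors 5 were tested and 0 called. Properdin, encoded by Cfp, had 5.83 ± 0.10 in Th3/Th3 and 6.05 ± 0.21 in wild type (adjusted p = 0.257), and factor B, encoded by Cfb, had 5.50 ± 0.12 and 5.65 ± 0.09 (adjusted p = 0.364). Of 7 ligands and relatives of Csf1r 5 were tested and 0 called, with Il34 at 5.18 ± 0.12 in Th3/Th3 and 5.37 ± 0.12 in wild type (adjusted p = 0.211) and Flt3 at 4.87 ± 0.23 and 5.08 ± 0.06 (adjusted p = 0.280). Of 10 macrophage transcription factors 7 were tested and 0 called. Spi1, which encodes PU.1, had 4.74 ± 0.20 in Th3/Th3 and 5.04 ± 0.21 in wild type (adjusted p = 0.224), and Cebpb had 5.88 ± 0.28 and 5.58 ± 0.06 (adjusted p = 0.232).

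Lysosomal genes, which are not particular to macrophages, went both ways. In Th3/Th3 against wild type, 3 of 16 tested rose and 2 fell, where 12.3% of all probe sets tested were called. The median was 0.19 over the 17 on the array. Lgmn, the asparaginyl protease legumain, fell by 1.54 (5.96 ± 0.20 in Th3/Th3, 7.50 ± 0.31 in wild type, adjusted p = 0.000721) and Ctsb, cathepsin B, fell by 1.12 (10.31 ± 0.25 and 11.44 ± 0.25, adjusted p = 0.00167). Ctsd, cathepsin D, rose by 0.91 (11.64 ± 0.21 and 10.74 ± 0.21, adjusted p = 0.00227).

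On the erythroblast side of the island contact, 4 of 9 genes tested fell and 0 rose in Th3/Th3 against wild type. Of all probe sets tested, 4.98% were called lower. The list median was -0.07 over 11 genes on the array. Itga4, the alpha-4 integrin that binds Vcam1, fell by 1.24 (9.18 ± 0.23 in Th3/Th3, 10.42 ± 0.16 in wild type, adjusted p = 0.000924). Its partner chain Itgb1 had 8.88 ± 0.27 and 8.62 ± 0.10 (adjusted p = 0.356), a gene named after its value was seen. Icam4, an adhesion protein of erythroblasts that binds alpha-V integrin on the macrophage, fell by 0.62 (10.98 ± 0.22 and 11.60 ± 0.14, adjusted p = 0.00822). Cd47, which keeps macrophages from engulfing a cell, fell by 1.71 (10.61 ± 0.20 and 12.32 ± 0.23, adjusted p = 0.000377). In Th3/+ 0 of the 9 genes tested were called against wild type, where 0.0282% of all probe sets were.

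**Figure D4:**
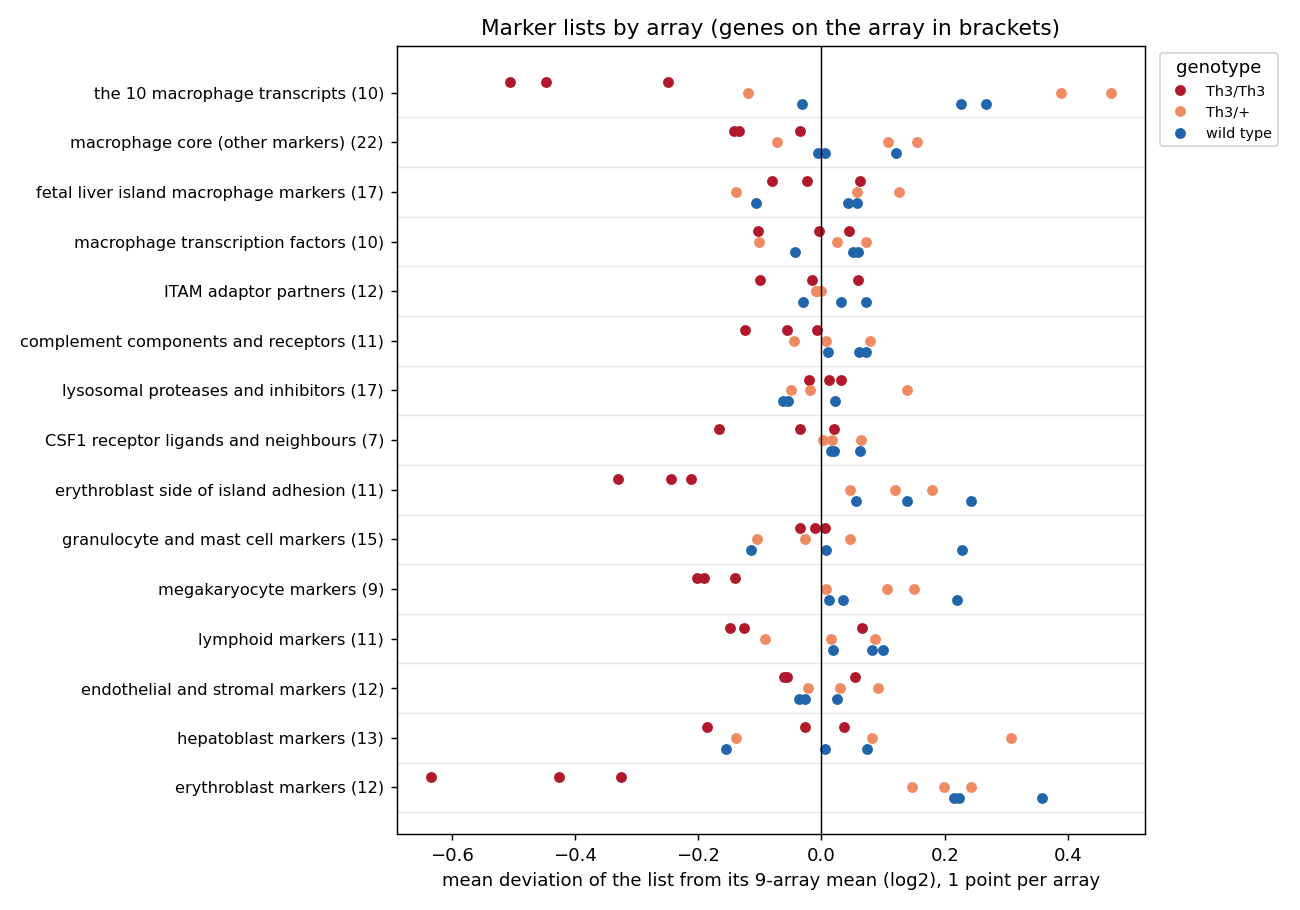
Mean deviation of each marker list from its mean over the 9 arrays (horizontal axis, log2), 1 point per array and coloured by genotype, with the number of genes on the array in brackets. Th3/Th3 points lie left of all others for the 10 macrophage transcripts, the erythroblast lists and the megakaryocyte list. The fetal liver island macrophage list, which holds Hmox1 and Slc40a1 that rose in Th3/Th3, overlaps between all genotypes.

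Markers of other cells were set beside the macrophage genes. In Th3/Th3 against wild type, 0 genes were called among 9 tested for megakaryocytes, 9 for granulocytes and mast cells, 12 for hepatoblasts, 5 for endothelium and stroma and 4 for lymphoid cells. Of all probe sets tested, 12.3% were called. The megakaryocyte list was also lower in Th3/Th3, averaging 6.66 to 6.72 there, 6.87 to 7.01 in Th3/+ and 6.88 to 7.08 in wild type. Within Th3/+ and within wild type it was highest on replicate 3, where the 10 genes averaged lowest. Within Th3/Th3 both the list and the 10 genes were highest on replicate 2. The megakaryocyte list had 8 of its 9 Th3/Th3 means below wild type, against 51.3% of all probe sets, and a median of -0.26. Its platelet glycoprotein gene Gp9 had 6.95 ± 0.16 in Th3/Th3 and 7.37 ± 0.23 in wild type (adjusted p = 0.113). The part of megakaryocyte RNA in the Fcer1g difference was not tested. Hepatoblast markers averaged 6.24 to 6.46 in Th3/Th3, 6.29 to 6.73 in Th3/+ and 6.27 to 6.50 in wild type. Their highest array was Th3/+ replicate 3, in which the 10 macrophage genes were low.

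Erythroblast markers were lower as well: of 12 tested 10 fell and 0 rose in Th3/Th3 against wild type, with a median of -0.74. Of all probe sets tested, 4.98% were called lower. Tfrc, which encodes the CD71 used in the sort, fell by 1.12 (11.00 ± 0.10 in Th3/Th3, 12.12 ± 0.17 in wild type, adjusted p = 0.000192). Hemgn, a nuclear protein of blood precursors, fell by 0.84, and Kel, a blood group glycoprotein, fell by 0.85 (adjusted p = 0.000392 and 0.000538). The part of this shift of the erythroid transcriptome in the macrophage differences was not tested.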

How the data were processed

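The deposited table holds 1 log2 value per probe set and array, and its columns carry the sample names. The log2 scale is read from the values, 1.78 to 14.26. The submitters' processing notes name MAS5 alone. Whether it summarised these whole-transcript probe sets is not settled, so the summary method behind each log2 value is unknown, and neither a background correction nor a genome build is given in the sources used here. The values were used as deposited by the authors. Arrays have no read depth, so their number limits the precision.

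Of 35556 probe sets, 6617 with identifiers below the first annotated one were left out as the control block. Of the remaining 28939, 21789 have 1 symbol in the platform annotation, 1621 several and 5529 none listed, and only single symbols were used. Limma 3.58.1 in R 4.3.3 (lmFit, eBayes with a mean-variance trend) fitted 1 mean per genotype to all 9 arrays. Tests are two-sided, with Benjamini-Hochberg adjustment over the 17742 probe sets tested, and the procedure was tested on simulated data. An exact permutation test of 3 against 3 arrays cannot give a p under 0.1, so calls rest on limma's moderated variance.

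The genes and lists were chosen with earlier results of these data known. From each list, up to 3 genes that passed are named, or up to 2 by p where none did. Where a gene had several probe sets, the brightest tested was taken. The promoter windows are RefSeq's.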

Additional observations from a re-analysis of the deposited data

How the results depend on the processing

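Of 71 alternative counts of macrophage genes called, 65 stayed within 1.5 times the reported count. Other filters on low values, quantile normalization, median centring, no variance trend and a fit of only the genotypes compared left 3 calls in both Th3/Th3 comparisons and 0 in Th3/+ cells. Adgre1 and Vcam1 have no value under the stricter filters. C1qb and Fcer1g kept their calls in Th3/Th3 against wild type under all 18 alternatives (adjusted p 0.00399 to 0.0401 and 0.00411 to 0.0221).

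Leaving out 1 array at a time gave 2 to 4 calls for Th3/Th3 against wild type, 1 to 5 for Th3/Th3 against Th3/+, 2 to 5 for the F-test and 0 each time for Th3/+ against wild type. For Th3/Th3 against Th3/+, 1 call (Tyrobp) was left without Th3/+ replicate 2, and 5 calls were made without Th3/+ replicate 3, which also gave 5 in the F-test. The genes added against Th3/+ were Adgre1 and Vcam1, which passed the filter only through Th3/+ and wild type arrays, so these calls are no support. Without Th3/+ replicate 1 and Th3/Th3 replicate 1 together, Th3/Th3 against Th3/+ kept 1 call.

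Leave-one-out differences of Cd68 ran from -0.47 to 0.15 for Th3/Th3 minus wild type, from -0.32 to 0.13 for Th3/Th3 minus Th3/+ and from -0.33 to 0.29 for Th3/+ minus wild type. In Th3/+ against wild type they ran, lowest to highest, from -0.077 to 0.24 for C1qb, from -0.28 to 0.24 for C1qc and from -0.094 to 0.39 for Vcam1. Some differences reversed without Th3/+ replicate 1 and Th3/Th3 replicate 1 together, the highest arrays on the second principal component. For Cd68 they became 0.07 in Th3/Th3 against wild type and 0.16 in Th3/Th3 against Th3/+. In Th3/+ against wild type they became -0.06 for C1qb and -0.09 for Vcam1.

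Over all probe sets, Th3/Th3 against Th3/+ gave 1290 calls, but 798 with only the arrays compared and 585 (without Th3/+ replicate 2) to 1412 (without Th3/Th3 replicate 1) with 1 array left out. Th3/Th3 against wild type gave 2181, with 1444 (without wild type replicate 2) to 2310 when 1 array was left out. Th3/+ against wild type gave 5, with 0 when only the arrays compared were fitted and 1 to 12 when 1 array was left out (without Th3/+ replicates 2 and 1).

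With the replicate number as a block, 5 genes were called in Th3/Th3 against wild type, 4 in Th3/Th3 against Th3/+ and 5 in the F-test, while calls over all probe sets became 2470, 1513 and 1780, against 2181, 1290 and 1615 without it. C1qc was added in both Th3/Th3 comparisons (adjusted p = 0.00489 against wild type and 0.0117 against Th3/+) and Ctss in the first (adjusted p = 0.0107). The labels do not say that a number marks a shared litter or day, and same-numbered arrays correlated at -0.12 to 0.35 in their deviations, with 6 of 9 pairs above 0.1. Differently numbered arrays correlated at -0.352 to 0.252, with 4 of 18 above 0.1. Same-numbered arrays were thus more often alike, but not in every pair. The second principal component also fell with the replicate number in every genotype. The numbers were not taken as pairs. The 40th percentile, 4.52 to 4.62, limits what Csf1r, Adgre1 and Vcam1 can show.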
